A study of Mus musculus with 9 samples.

Results

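The protein parts of the mitochondrial ribosome were followed at the RNA level in mouse gastrocnemius, a large muscle of the calf. Members were all gene symbols that begin with Mrpl (large subunit) or Mrps (small subunit) followed by a digit and that hold no hyphen, with the sequence records of a symbol summed. The table held 77 such symbols, 48 of the large and 29 of the small subunit, and all 77 were above 0 in all 9 libraries. They were 77 of 15372 symbols tested. By the ribosome's known structure, the products of Mrps18a and Mrps30 sit in the large subunit, and Mrps36 is a subunit of the 2-oxoglutarate dehydrogenase complex, so the members fall into 50 large, 26 small and 1 other.

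The samples form 3 groups of 3 libraries, all from mice with the strain label C57BL/6 and all from gastrocnemius. The first group was wildtype given vehicle, the second was mdx given vehicle, and the third was mdx given GTx-026 at 10 mg/kg by subcutaneous injection. Muscle of mdx mice lacks dystrophin because Dmd is mutated, and the strain is widely used to study Duchenne muscular dystrophy. The series title places GTx-026 among androgen receptor agonists. No wildtype mice given the drug are among the samples, and neither the age of the animals, the length of treatment nor a link from library to animal is given in the sources used here. P-values therefore measure the spread between these libraries.

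Muscle mitochondria make the core subunits of the respiratory chain on their own ribosomes, from messenger RNAs of the mitochondrial genome. The RNAs of these ribosomes are also mitochondrial products, whereas every ribosomal protein is encoded in the nucleus, made in the cytosol and imported. The small subunit binds the messenger RNA and reads its codons, and the large subunit joins the amino acids. Some of the proteins have relatives in bacterial ribosomes and others are found only in mitochondria. The polyadenylated RNA measured here reports the nuclear side of this supply, and neither protein nor assembled ribosomes were measured.

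The listed reads ran from 25.1 M to 38.0 M (mega) per library. Levels are given as CPM, the reads of a gene per mega reads of its library, rescaled between libraries by a trimmed mean of log ratios. Dmd, the mutated gene, lay between 41.4 and 60.04 CPM in the wildtype vehicle libraries, between 11.4 and 21.7 in the mdx vehicle libraries and between 14.2 and 17.996 in the mdx GTx-026 libraries. Its log2 fold change, mdx vehicle against wildtype vehicle, was -1.47 ± 0.25 (SE, n = 3 per group, limma adjusted p = 0.0424). General muscle markers summed to between 68334 and 121300 CPM in all 9 libraries, so the labelled tissue was present in each.

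The mdx vehicle library 1 stood apart. Its rescaling factor was 1.30, against 0.874 to 1.08 in the other 8 libraries. Its 9 slow-fibre contractile genes summed to 408 CPM, the lowest of the 9 libraries, where the others ran from 1062 to 15240. Its 11 measured macrophage markers summed to 1032 CPM, the highest, against 55 to 143 in wildtype vehicle, 150 and 557 in the other mdx vehicle libraries and 407 to 638 in mdx GTx-026. By the median of these markers relative to the wildtype vehicle mean it was not the highest (log2 scale, rescaled CPM). That median was 1.71, below 2.11 in mdx vehicle library 3 and 1.99 and 1.73 in mdx GTx-026 libraries 3 and 1, and above those of the remaining libraries. Of 11 lymphoid markers listed, 2 were among the tested symbols, which are those above 0 in all 9 libraries. These 2 summed to 371 CPM in mdx vehicle library 1 and to between 3.60 and 131 in the others. Adgre1, Cd3e and Ptprc are not analysed here. Medians and the values of the main members are given with and without it, and the part that these cell types play in them was not tested. In such bulk RNA, fewer cells of a type and less RNA per cell cannot be told apart.

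Promoters of the members were read to see which sequence elements they share. Many nuclear genes for mitochondrial proteins are known to be bound near their start by NRF1 and by the ETS factor GABP. RefSeq promoter windows of the GRCm38 build, from 250 bases before to 50 bases after the gene start, matched 68 of the 77 members. The NRF1 element was searched as GCGCA, any base and GCGC in a row, on both strands. It was found in 13 of 68 members (19.1%), against 7.12% of 17424 other protein-coding genes and 11.1% of the 9299 of these that were tested. The ETS core was searched as CCGGAA on both strands. It was found in 39 of 68 members (57.4%), against 20.8% of the other protein-coding genes and 30.1% of those tested. The YY1 element, searched as AAGATGGCG on both strands, was in 8 of 68 (11.8%), against 2.10% and 3.51%. The other elements searched on both strands were less set apart: GGGGCGGGG was in 19.1% of members and 24.5% of other tested genes, CCAAT in 39.7% and 42.5%, and TATAAA in 7.35% and 8.83%. A match describes letters in the window and shows no binding.

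The following stretches lie before the start that RefSeq gives the gene, on the strand of the gene. The first 5 show the NRF1 letters in capitals, in either orientation, in members of both subunits. The next 5 show the ETS core in capitals, in either orientation, in members whose values are described further on.
Mrpl12: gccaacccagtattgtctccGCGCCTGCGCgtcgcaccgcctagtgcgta
Mrpl44: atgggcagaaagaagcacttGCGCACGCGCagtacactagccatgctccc
Mrpl45: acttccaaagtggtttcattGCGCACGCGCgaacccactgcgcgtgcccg
Mrpl30: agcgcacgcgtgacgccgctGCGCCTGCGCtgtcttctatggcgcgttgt
Mrps21: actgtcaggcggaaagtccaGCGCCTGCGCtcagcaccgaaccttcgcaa
Mrpl3: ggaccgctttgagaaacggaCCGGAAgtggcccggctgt
Mrpl33: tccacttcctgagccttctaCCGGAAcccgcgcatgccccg
Mrpl48: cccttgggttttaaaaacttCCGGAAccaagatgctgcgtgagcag
Mrps18a: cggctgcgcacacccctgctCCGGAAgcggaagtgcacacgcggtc
Mrps16: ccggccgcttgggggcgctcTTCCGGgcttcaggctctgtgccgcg
All coordinates are on GRCm38, and distances are to the RefSeq start. In the GENCODE annotation, where some genes begin farther upstream, the stretches of Mrpl33, Mrpl48 and Mrps16 lie inside the gene and those of Mrpl3 and Mrps18a cross its start. The Mrpl12 stretch is at chr11:120484536-120484585 on the plus strand, and its element ends 71 bases before the start. The Mrpl44 stretch is at chr1:79775963-79776012 on the plus strand, with the element 25 bases before the start. Those of Mrpl45 and Mrpl30 are at chr11:97315658-97315707 and chr1:37890374-37890423 on the plus strand, and that of Mrps21 is at chr3:95871576-95871625 on the minus strand. Those of Mrpl3 and Mrps18a are at chr9:105053229-105053267 and chr17:46110958-46111003 on the plus strand. The Mrpl33 stretch is at chr5:31613910-31613950 on the plus strand, and the Mrpl48 stretch is at chr7:100583136-100583181 on the minus strand. The Mrps16 stretch is at chr14:20393538-20393583 on the minus strand.

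Members often stood back to back with another gene. A protein-coding neighbour that starts on the opposite strand within 1000 bases was annotated for 19 of 77 members (24.7%), against 10.4% of 11808 other tested protein-coding genes. Some of these pairs join mitochondrial genes: Mrpl36 lies beside Ndufs6, a subunit of respiratory complex I, and Mrps12 lies 172 bases from Sars2, the mitochondrial seryl-tRNA synthetase. Their transcripts took separate values. In mdx vehicle against wildtype vehicle the log2 fold change was -0.24 for Mrpl36 and -0.50 for Ndufs6, and -0.12 for Mrps12 and 0.10 for Sars2, and none of these 4 passed the test. Mrpl36 and Ndufs6 overlap at their starts, as Mrpl46 and Mrps11 do, and use of strand in the counting is not given in the sources used here.

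All 77 members had a mean of at least 5 CPM. The mean over the 9 libraries ran from 14.3 to 207 CPM in the large subunit, with a median of 34.3, and from 13.1 to 82.3 CPM in the small subunit, with a median of 31.4. Levels between genes were compared per kilobase, with the most abundant record of each gene divided by its transcript length. On that scale the large subunit ran from 4.94 CPM per kb for Mrpl1 to 276 for Mrpl42, and the small subunit from 3.87 for Mrps2 to 187 for Mrps21. Mrpl33 had 268 CPM per kb, close to Mrpl42. Mrpl1 and Mrps2 have 4 records each, so their reads may be spread over records. Of the words of 50 bases in the Mrpl42 transcript 16.6% also occur in Gm6419, and of those in Mrpl33 30.3% occur in Gm43809, which overlaps it, so these levels may include reads from elsewhere.

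The 2 subunits kept an almost fixed proportion. The summed CPM of the large subunit divided by that of the small subunit lay between 1.93 and 2.06 in all 9 libraries. It was 1.98 ± 0.049 in wildtype vehicle, 1.99 ± 0.022 in mdx vehicle and 2.04 ± 0.013 in mdx GTx-026 (SD, n = 3). With members split by name, the 3 mdx GTx-026 libraries, at 2.04, 2.06 and 2.04, were above the other 6, of which the highest was 2.02. With members placed by structure this was not so. The sums were then 2607 and 1057 CPM in wildtype vehicle library 3, a higher ratio than the 2276 and 931 CPM of mdx GTx-026 library 1. No test was made of this ratio. The summed level itself varied more. The large subunit summed to 2285 ± 201 CPM in wildtype vehicle, 1986 ± 373 in mdx vehicle and 2209 ± 128 in mdx GTx-026, and the small subunit to 1156 ± 86.6, 995 ± 184 and 1080 ± 56.4 CPM (SD, n = 3). The group ranges of both sums overlapped.

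**Figure D1:**
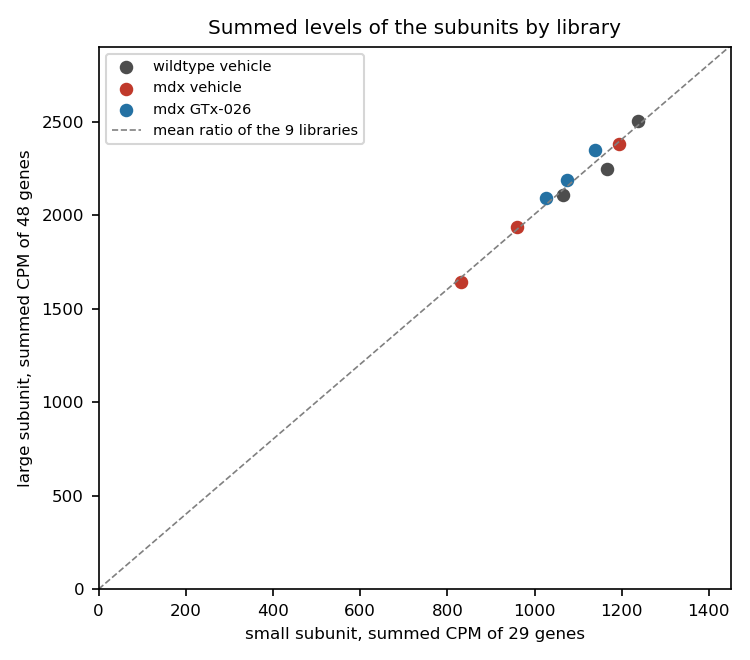
Summed CPM of the 48 large subunit genes (vertical axis) against that of the 29 small subunit genes (horizontal axis), 1 point per library, with colours for the groups and a dashed line for the mean ratio. The libraries lie along the line, and the mdx vehicle libraries span from the lowest sum, 1642 CPM for the large subunit, to 2382 CPM.

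The first comparison, mdx vehicle against wildtype vehicle, asked what the dystrophin mutation goes with. No member passed the test (limma, adjusted p under 0.05), where 0.488% of all tested symbols did. Values leaned downward: 42 of 48 large subunit members had a log2 fold change below 0, with a median of -0.19, and 27 of 29 small subunit members did, with a median of -0.18. Over all tested symbols the median was 0.01. Unadjusted p was under 0.05 for 6 members (7.79%), namely Mrpl16, Mrpl18, Mrpl33, Mrpl42, Mrps18a and Mrps7, against 12.9% of all tested symbols. The standard errors of single members had a median of 0.17 in both subunits. They do not measure the error of the subunit medians, which was not estimated. On the rescaled CPM, groups did not overlap for 5 members, all of the large subunit and all lower in mdx vehicle. Of tested symbols, 8.57% were lower in this way. None of the members was higher without overlap, against 8.11% of tested symbols. Scaled by library total only, of these 5 members only Mrpl42 stayed without overlap.

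The downward lean was deepest in a single library. Relative to the wildtype vehicle mean, the median member of the large subunit lay at -0.47 in mdx vehicle library 1, at 0.08 in library 2 and at -0.18 in library 3 (log2 scale). In the small subunit these medians were -0.42, 0.06 and -0.25. The wildtype vehicle libraries ranged from -0.10 to 0.11 and from -0.09 to 0.09. Library 1 held the lowest of the 9 values for 55 of 77 members (71.4%), where it was lowest for 24.2% of all tested symbols. Without it, the median log2 fold change was -0.09 in both subunits, and 33 of 48 large and 22 of 29 small members remained below 0. The medians were -0.31 and -0.36 without mdx vehicle library 2, and that of the small subunit was -0.28 without wildtype vehicle library 2.

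The lean also depended on how libraries were scaled. Scaled by library total only, the median of all tested symbols moved to 0.16, and those of the large and small subunits to -0.01 and 0.00, so that relative to all symbols they lay at -0.17 and -0.16. On that scale 27 of 48 large and 16 of 29 small members were below 0, in place of 42 and 27. The median member of the large subunit in mdx vehicle library 1 then stood at 0.00, while the median of all tested symbols in that library stood at 0.38. The members were thus low in that library relative to its other genes, and not as a share of its total.

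**Figure D2:**
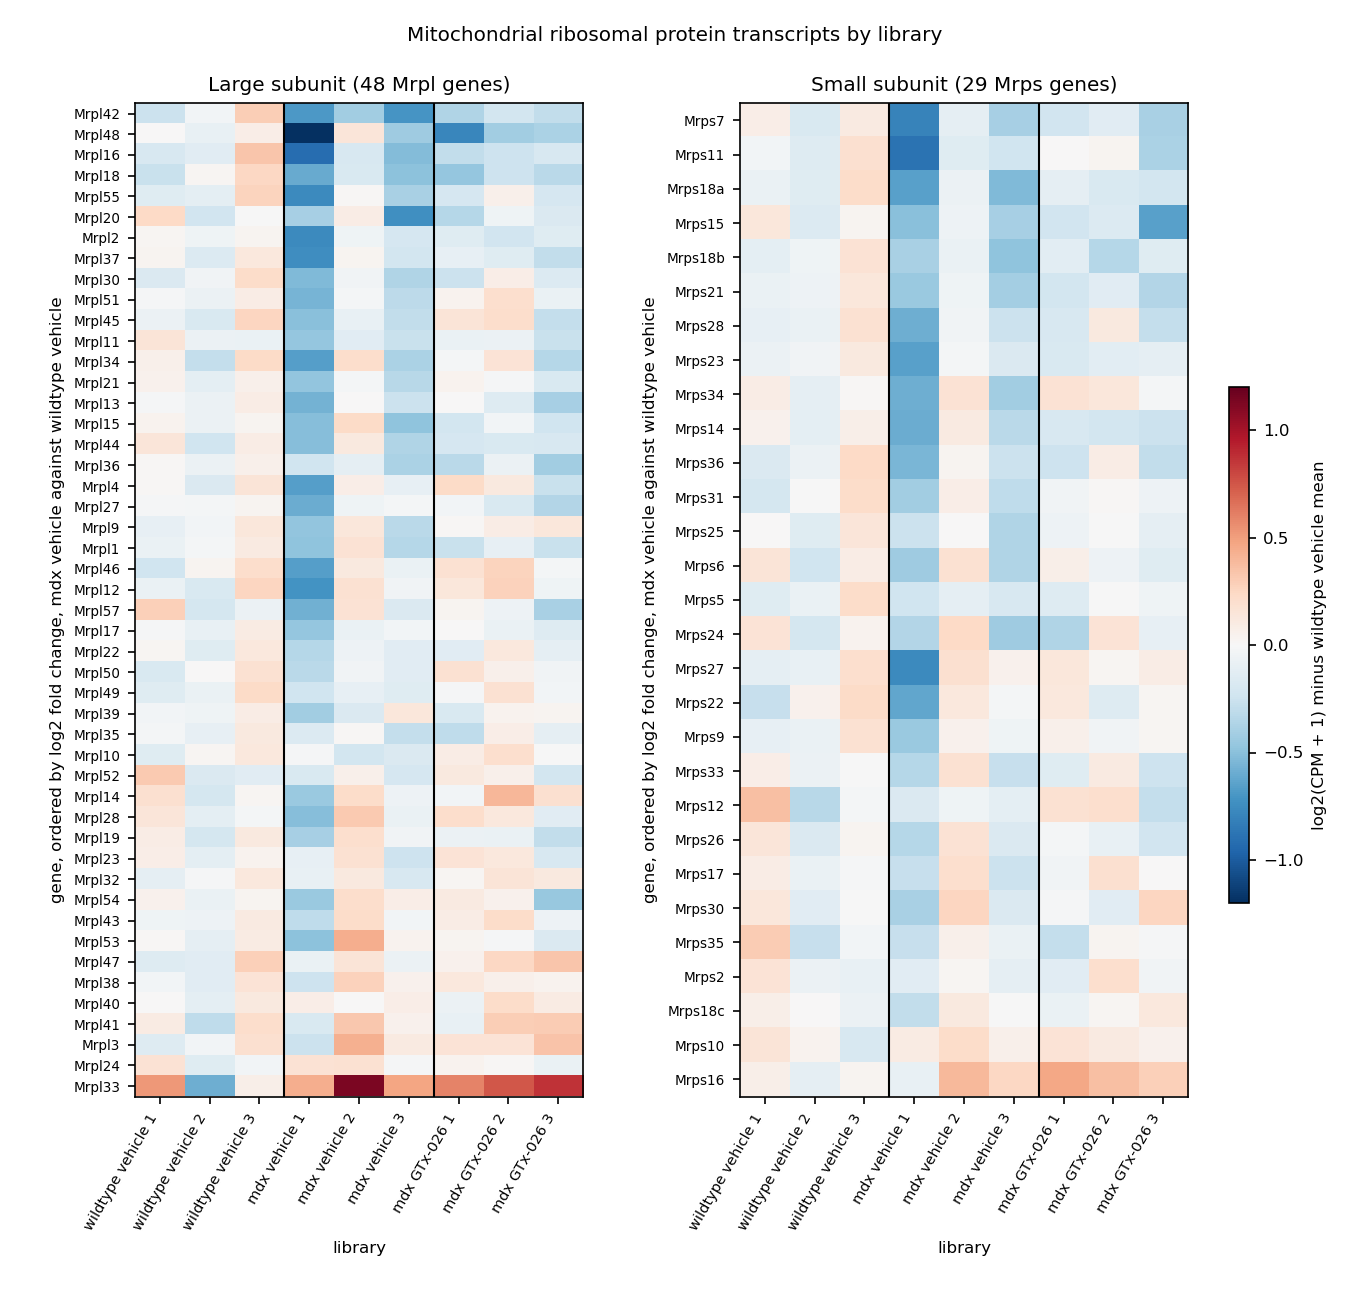
Each row is a member, ordered by its log2 fold change in mdx vehicle against wildtype vehicle, and each column a library. Colour gives log2(CPM + 1) minus the wildtype vehicle mean. The column of mdx vehicle library 1 is the lowest for 55 of 77 members, and Mrpl33 lies above the wildtype vehicle mean in all 6 mdx libraries.

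Mrpl42 had the lowest log2 fold change and the lowest p of all members. It encodes a protein with no bacterial relative (chr10:95480805-95501940, GRCm38, GENCODE). Its levels were 208, 243 and 307 CPM in wildtype vehicle, 155, 187 and 153 CPM in mdx vehicle, and 194, 214 and 204 CPM in mdx GTx-026. On this rescaled CPM, every mdx vehicle library lay below every library of the other 2 groups. Scaled by library total only, mdx vehicle still lay below wildtype vehicle but overlapped mdx GTx-026. The rescaling factor was 1.30 in mdx vehicle library 1 and 0.891 in mdx GTx-026 library 1. The log2 fold change in mdx vehicle against wildtype vehicle was -0.60 ± 0.17 (SE, n = 3 per group), with unadjusted p = 0.00494 and limma adjusted p = 0.196. Without mdx vehicle library 1 it was -0.56, so its value did not rest on that library.

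The other 4 members without overlap on the rescaled CPM were Mrpl2, Mrpl11, Mrpl16 and Mrpl36, all relatives of bacterial large subunit proteins. Mrpl16 had 34.96, 36.3 and 50.6 CPM in wildtype vehicle and 20.8, 34.88 and 27.7 CPM in mdx vehicle, with a log2 fold change of -0.54 ± 0.20 (adjusted p = 0.317, limma). The nearest libraries of those groups thus lay almost level. Mrpl2 had 65.7, 62.7 and 66.2 CPM in wildtype vehicle and 37.7, 62.4 and 56.2 CPM in mdx vehicle. Mrpl11 had 54.3, 46.2 and 46.0 CPM against 35.04, 44.3 and 40.4 CPM. Mrpl36 had 24.4, 23.0 and 25.4 CPM against 20.4, 22.5 and 18.4 CPM. In Mrpl2 and Mrpl11 the second mdx vehicle library came close to the wildtype range, and in Mrpl36 it lay just under that range.

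Mrpl48 and Mrpl18 were also among the 5 lowest of the large subunit, with Mrpl55. Mrpl48 had 50.9, 47.6 and 53.8 CPM in wildtype vehicle, but 18.2, 56.3 and 37.4 CPM in mdx vehicle. The mdx vehicle libraries thus spread over both sides of the wildtype range, and the log2 fold change of -0.57 ± 0.33 became -0.14 without library 1. Mrpl18 had 65.5, 80.0 and 93.65 CPM against 51.4, 69.5 and 55.9 CPM, with a log2 fold change of -0.43 ± 0.17 (adjusted p = 0.340, limma) and overlapping groups. Mrpl55, counted over 10 records, had a log2 fold change of -0.38. With library 1 left out, Mrpl16 had -0.36, Mrpl18 -0.34 and Mrpl55 -0.19.

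Mrpl33 stood at the other end. It is the relative of bacterial ribosomal protein L33 (chr5:31596935-31664384, GENCODE). Its levels were 74.8, 34.3 and 54.5 CPM in wildtype vehicle, 70.9, 115 and 72.8 CPM in mdx vehicle, and 79.3, 87.9 and 95.4 CPM in mdx GTx-026. The wildtype vehicle libraries spread more than those of most members, and the first of them lay within the mdx vehicle range. The log2 fold change in mdx vehicle against wildtype vehicle was 0.68 ± 0.28 (adjusted p = 0.350, limma), and 0.80 without mdx vehicle library 1. The next highest large subunit members, Mrpl24, Mrpl3, Mrpl41 and Mrpl40, had values of 0.12, 0.09, 0.07 and 0.05, and of 0.09, 0.27, 0.19 and 0.04 without that library.

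In the small subunit the 5 lowest values were those of Mrps7, Mrps11, Mrps18a, Mrps15 and Mrps18b, from -0.44 to -0.32. Mrps7, the relative of a bacterial protein that binds the small ribosomal RNA, had 85.5, 71.1 and 87.2 CPM in wildtype vehicle and 46.2, 75.01 and 61.1 CPM in mdx vehicle. The groups overlapped through library 2, and the log2 fold change of -0.44 ± 0.18 (adjusted p = 0.361, limma) was -0.26 without library 1. Mrps11, at -0.42, was -0.19 without it. The 5 highest were Mrps16, Mrps10, Mrps18c, Mrps2 and Mrps35, and only the first 2 were above 0. Mrps16 had 30.4, 26.7 and 29.5 CPM in wildtype vehicle and 27.1, 38.0 and 34.5 CPM in mdx vehicle, a log2 fold change of 0.18 ± 0.15. Its value without library 1 was 0.32, and it passed in neither fit.

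**Figure D3:**
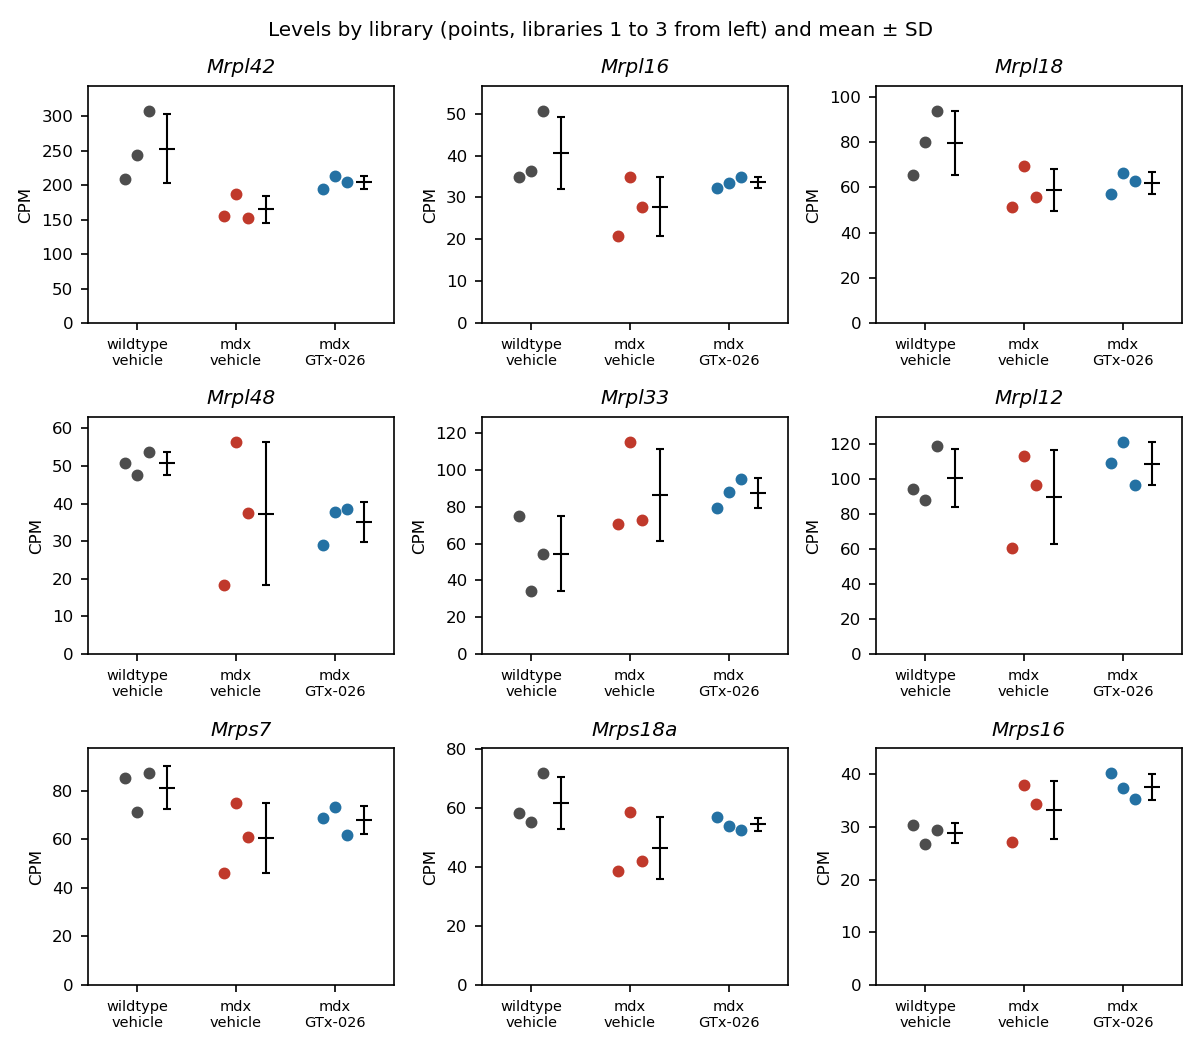
CPM of 9 members, 1 point per library in order of library number, with the group mean ± SD beside the points. In Mrpl42 the mdx vehicle points, at 153 to 187 CPM, lie below all others. In Mrpl48 they run from 18.2 to 56.3 CPM.

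The bacterial S18 protein has 3 relatives in mammalian mitochondria, and their transcripts differed in value. Mrps18a, whose product sits in the large subunit, had 58.1, 55.3 and 71.6 CPM in wildtype vehicle, 38.7, 58.5 and 42.1 CPM in mdx vehicle, and 56.9, 53.8 and 52.6 CPM in mdx GTx-026. Mrps18b had 29.1, 30.4 and 35.8 CPM, then 23.9, 29.8 and 22.3 CPM, then 28.8, 24.8 and 28.6 CPM in these groups. Mrps18c had 23.0, 22.1 and 20.8 CPM, then 17.7, 23.9 and 21.9 CPM, then 20.8, 22.4 and 24.1 CPM. The log2 fold changes in mdx vehicle against wildtype vehicle were -0.42 ± 0.17, -0.32 ± 0.15 and -0.06 ± 0.14 for a, b and c. None passed the test, the differences between the 3 were not tested, and in Mrps18b 27.2% of the words of 50 bases also occur in Gm13552. With mdx vehicle library 1 left out the values were -0.30, -0.28 and 0.06, and scaled by library total only, that of Mrps18c turned to 0.12.

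Members known for a second role or another place were described whatever their values. Mrpl12, which also binds the mitochondrial RNA polymerase, had 94.5, 87.9 and 119 CPM in wildtype vehicle, 60.4, 113 and 96.5 CPM in mdx vehicle, and 109, 121 and 96.4 CPM in mdx GTx-026. Only the first mdx vehicle library was outside the range of the other libraries, and the log2 fold change of -0.19 ± 0.23 was 0.07 without it. Mrpl44, a protein with a ribonuclease III fold whose loss in people causes cardiomyopathy, had 34.3, 26.01 and 32.9 CPM, then 21.3, 33.6 and 23.9 CPM, then 26.6, 27.0 and 26.9 CPM. Its mdx vehicle libraries spanned most of the range of the other groups. Mrpl3, also linked to cardiomyopathy in people, had 28.1, 30.8 and 36.1 CPM, then 26.2, 42.7 and 34.1 CPM, then 35.3, 35.5 and 40.2 CPM. Its value in mdx vehicle against wildtype vehicle, 0.09 ± 0.18, was within its error.

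Mrps12, the relative of the bacterial protein at the decoding site, had 36.8, 22.3 and 27.8 CPM in wildtype vehicle, 25.1, 27.3 and 26.01 CPM in mdx vehicle, and 32.4, 32.9 and 23.1 CPM in mdx GTx-026. Its wildtype vehicle libraries spanned the mdx vehicle ones. Mrps30, of the large subunit by structure, had 35.8, 29.5 and 32.4 CPM, then 24.6, 39.1 and 28.7 CPM, then 32.2, 29.4 and 39.1 CPM. Its groups overlapped in all 3 comparisons. Mrps36, the dehydrogenase subunit, had 57.0, 61.3 and 75.9 CPM, then 43.7, 65.8 and 53.5 CPM, then 53.8, 68.4 and 52.1 CPM. Its log2 fold change of -0.26 ± 0.18 in mdx vehicle against wildtype vehicle lay among those of the ribosomal members and was -0.11 without mdx vehicle library 1, and 33.7% of its words of 50 bases occur elsewhere.

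Members were also divided by origin. With members placed by structure, the 30 large subunit proteins that hold the place of a bacterial counterpart had a median log2 fold change of -0.22 in mdx vehicle against wildtype vehicle, and the 20 others, Mrps18a among them, had -0.16. In the small subunit these were -0.18 for 16 members and -0.19 for the 10 others, which include Mrps18b. With mdx vehicle library 1 left out, the medians were -0.09 and -0.05 in the large and -0.09 and -0.07 in the small subunit. By promoter element, the median was -0.19 for the 13 members with the NRF1 letters and -0.18 for the 55 without, and -0.18 for the 39 with the ETS core and -0.20 for the 29 without. It was -0.28 for the 8 members with the YY1 letters, Mrpl42 among them, and -0.19 for the 60 without. All 8 with the YY1 letters were below 0, as were 53 of the 60 without and all 13 with the NRF1 letters. With that library left out, medians with and without the letters were -0.04 and -0.09 for NRF1, -0.09 and -0.10 for ETS, and -0.16 and -0.09 for YY1. In mdx GTx-026 against wildtype vehicle the YY1 medians were -0.14 and -0.03. Those for NRF1 were -0.04 and -0.05, and those for ETS -0.05 and -0.05. These are descriptions, and the differences were not tested.

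The second comparison, mdx GTx-026 against mdx vehicle, asked what the drug goes with in mdx muscle. No member passed the test, where 0.013% of tested symbols did. Values leaned upward: 43 of 48 large subunit members were above 0, with a median of 0.13, and 26 of 29 small subunit members were, with a median of 0.14. Over all tested symbols the median was 0.00. Unadjusted p was under 0.05 for 1 member, Mrpl51, against 3.21% of tested symbols. Both comparisons share the mdx vehicle libraries, so a library that is low there lowers the first and raises the second.

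Without mdx vehicle library 1, this lean was not seen. The medians became 0.02 and -0.01, and 25 of 48 large and 14 of 29 small members were above 0. They became 0.24 and 0.26 without mdx vehicle library 2, and without mdx GTx-026 library 2 the small subunit's median became 0.09. Scaled by library total only, with all libraries, the medians were 0.06 and 0.07, with 34 of 48 and 22 of 29 members above 0, and that of all tested symbols was -0.06. On the rescaled CPM, the mdx GTx-026 libraries themselves had large subunit medians of -0.01, 0.06 and -0.17 relative to the wildtype vehicle mean. Libraries 1 and 2 lay within the wildtype vehicle range of -0.10 to 0.11. Library 3 lay below it, near the -0.18 of mdx vehicle library 3. The small subunit medians of the mdx GTx-026 libraries were -0.08, 0.02 and -0.11.

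**Figure D4:**
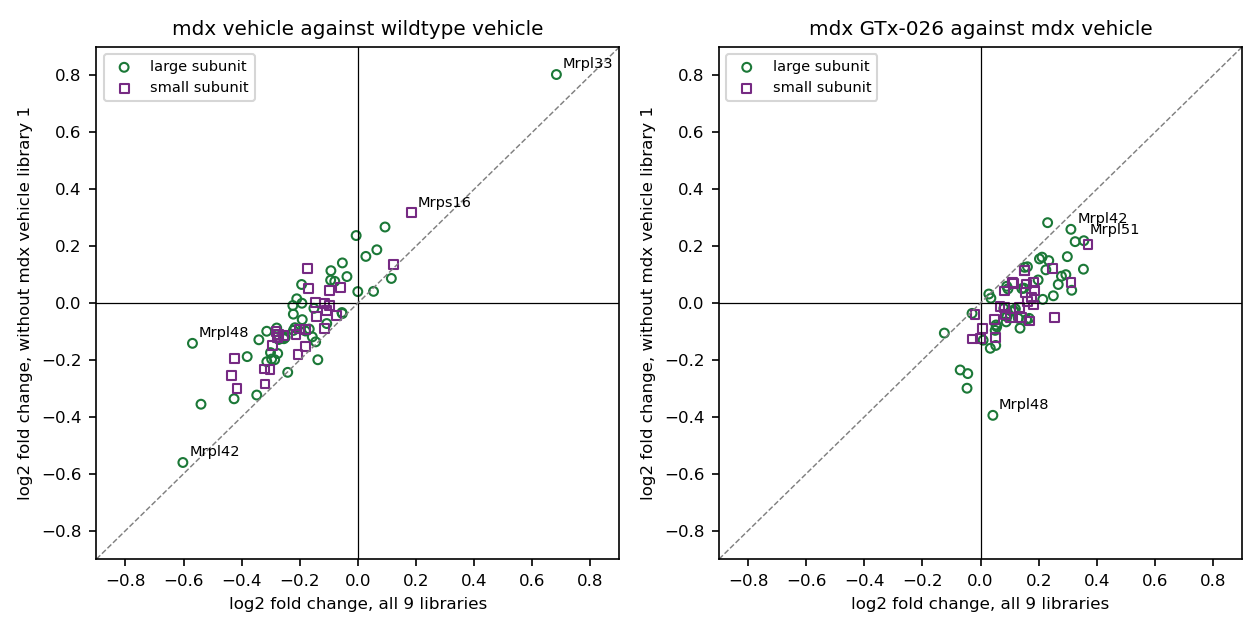
Log2 fold change of each member with all 9 libraries (horizontal axis) and without mdx vehicle library 1 (vertical axis), for mdx vehicle against wildtype vehicle (left) and mdx GTx-026 against mdx vehicle (right). Points on the dashed line would not have moved. Most points lie over the line on the left and under it on the right, where the medians without that library are 0.02 for the large and -0.01 for the small subunit.

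On the rescaled CPM, the groups of the second comparison did not overlap for 3 members, Mrpl10, Mrpl42 and Mrpl49, all higher in mdx GTx-026. Of tested symbols, 3.68% were higher in this way. None of the members was lower without overlap, against 3.17%. Scaled by library total only, the groups overlapped in all 3 members. Mrpl42, described above, had a log2 fold change of 0.31 ± 0.17 (unadjusted p = 0.0913, limma adjusted p = 1.00) and 0.26 without mdx vehicle library 1. Mrpl10 had 36.5, 31.6 and 32.6 CPM in mdx vehicle and 39.3, 42.6 and 36.9 CPM in mdx GTx-026. Its wildtype vehicle libraries, at 33.3, 37.6 and 40.4 CPM, overlapped both groups. Mrpl49 had 19.7, 21.8 and 21.1 CPM in mdx vehicle and 23.2, 26.7 and 22.8 CPM in mdx GTx-026.

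The 5 highest large subunit values in this comparison were those of Mrpl51, Mrpl46, Mrpl45, Mrpl12 and Mrpl42. Mrpl51 had 83.2, 120 and 98.3 CPM in mdx vehicle and 127, 141 and 116 CPM in mdx GTx-026, beside 122, 117 and 130 CPM in wildtype vehicle. The mdx GTx-026 libraries lay around the wildtype vehicle ones, and 1 mdx vehicle library lay within their range. Its log2 fold change was 0.36 ± 0.15 (unadjusted p = 0.0453, limma adjusted p = 1.00), and 0.22 without mdx vehicle library 1. Mrpl45, a membrane-bound protein near the tunnel through which new chains leave, had 0.33 ± 0.18, and Mrpl46 had 0.35 ± 0.21, which became 0.22 and 0.12. The lowest values were small: Mrpl24 had -0.12, Mrpl19 -0.07, Mrpl53 -0.05, Mrpl54 -0.04 and Mrpl36 -0.03. Without that library, Mrpl12 went from 0.31 to 0.04, Mrpl19 to -0.24, Mrpl53 to -0.30 and Mrpl54 to -0.25. Every 50-base word of Mrpl53 also occurs in the overlapping Gm42688, so its reads cannot be assigned to it alone.

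In the small subunit the highest were Mrps34 at 0.37 ± 0.19, Mrps11 at 0.31 ± 0.21, and Mrps27, a protein with RNA-binding repeats, and Mrps18a at 0.25 each. Mrps16 followed at 0.19. The lowest were Mrps15 at -0.03, Mrps10 at -0.02, Mrps26 at 0.00, Mrps35 at 0.01 and Mrps33 at 0.05. Mrps27 became -0.05 without mdx vehicle library 1, where its level was 14.95 CPM against 29.98 and 27.1 CPM in the other 2. Mrps34 became 0.21, Mrps11 0.07, Mrps18a 0.12 and Mrps16 0.04.

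The third comparison, mdx GTx-026 against wildtype vehicle, sets no mdx vehicle library against another group, though these libraries enter the pooled spread and the rescaling. No member passed the test, against 1.65% of tested symbols. The medians were -0.04 in the large and -0.07 in the small subunit, with 20 of 48 and 10 of 29 members above 0, beside a median of 0.00 over all tested symbols. Scaled by library total only, 30 of 48 and 18 of 29 were above 0, with medians of 0.06 and 0.04 beside 0.10 for all tested symbols, so the sign here followed the scaling. Leaving out single libraries also moved these medians, which are close to 0. In the large subunit they were -0.11 and 0.00 without wildtype vehicle library 2 or 3, and -0.07 and 0.02 without mdx GTx-026 library 2 or 3. In the small subunit they were -0.13 and -0.02 without wildtype vehicle library 2 or 3, and -0.03 without mdx GTx-026 library 3. Unadjusted p was under 0.05 for Mrpl33 and Mrps16, against 12.7% of tested symbols. The same 2 were higher without overlap, against 11.7%. Mrpl33 had a log2 fold change of 0.74 ± 0.28 (adjusted p = 0.291, limma). Mrps16, at 40.2, 37.4 and 35.3 CPM in mdx GTx-026, had 0.37 ± 0.15 (adjusted p = 0.314, limma).

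Lower without overlap in mdx GTx-026 than in wildtype vehicle were 9 members (against 9.26% of tested symbols): Mrpl1, Mrpl2, Mrpl16, Mrpl27 and Mrpl48 of the large subunit and Mrps14, Mrps18b, Mrps21 and Mrps23 of the small. Mrpl48 had 29.1, 37.7 and 38.7 CPM in mdx GTx-026, with the lowest log2 fold change of the members, -0.53 ± 0.33. Mrpl2 had 58.7, 55.1 and 58.4 CPM, and Mrpl16 had 32.4, 33.6 and 34.9 CPM, where the lowest wildtype vehicle library had 34.96. Mrps21, the most abundant small subunit transcript per kilobase, had 87.4, 88.9 and 102 CPM in wildtype vehicle and 79.5, 84.2 and 72.1 CPM in mdx GTx-026. Mrps23 had 68.0, 69.3 and 77.6 CPM against 62.7, 65.5 and 66.2 CPM, and Mrps14 had 60.9, 54.3 and 61.8 CPM against 51.5, 50.4 and 49.2 CPM. Mrpl1 had 28.0, 29.1 and 31.9 CPM against 24.5, 27.6 and 24.5 CPM, and Mrpl27 had 28.2, 27.8 and 29.1 CPM against 27.6, 24.9 and 22.1 CPM. These gaps were small beside the levels themselves. The calls without overlap in this comparison are on the rescaled CPM and were not made by library total.

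Spread within a group differed between the groups. The median coefficient of variation of the large subunit members was 10.5% in wildtype vehicle, 20.2% in mdx vehicle and 9.92% in mdx GTx-026, and that of the small subunit was 11.2%, 19.8% and 8.09%. Over the 10349 tested symbols with a mean of at least 5 CPM it was 13.1%, 18.4% and 13.5%. Without mdx vehicle library 1, the 2 libraries left gave 14.0% and 14.6% for the subunits and 11.1% for those symbols. Such a median tends to be lower over 2 libraries than over 3, so these values are not on the scale of those above.

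The authors' deposited table gives an unadjusted p-value for each record and pair of groups. Of the 166 member records, the authors' deposited table has 0 below 0.05 for wildtype against mdx vehicle, where 6.01% of all records are. It has 1 for mdx vehicle against mdx GTx-026, 1 of the 3 records of Mrpl21, against 1.94% of all records. It has 1 for wildtype against mdx GTx-026, the record of Mrps16, against 9.32%. Of the 77 symbols, 40 have 1 record and 37 have several, 10 at most. In mdx vehicle against wildtype vehicle the records took both signs in 5 of the 37, and the spread between the records of a symbol had a median of 0.11 on the log2 scale.

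The rest of the mitochondrial translation machinery was described from lists of known genes. The 14 translation factors and messenger RNA stabilisers all had values below 0 in mdx vehicle against wildtype vehicle, with a median of -0.36, and 0 passed the test. The 2 lowest were Gfm1, an elongation factor, and Gfm2. Gfm1 had 94.0 ± 12.3 CPM in wildtype vehicle and 59.6 ± 15.1 CPM in mdx vehicle (log2 fold change -0.67 ± 0.19, adjusted p = 0.215, limma). Gfm2 had 76.3 ± 10.4 and 51.6 ± 12.7 CPM (-0.58 ± 0.19). The 2 highest, the release factor Mtrf1l and the formyltransferase Mtfmt, were at 0.00. Without mdx vehicle library 1, 12 of 14 were below 0 and the median was -0.23. In mdx GTx-026 against mdx vehicle all 14 were above 0 with a median of 0.18, and without that library 9 of 14 with 0.08. The lean in mdx vehicle against wildtype vehicle was smaller when scaled by library total only, with 8 of 14 below 0 and a median of -0.18 beside 0.16 for all tested symbols.

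Ribosome assembly factors were less uniform. Of 25 measured, 17 were below 0 in mdx vehicle against wildtype vehicle, with a median of -0.09 and 0 past the test. Malsu1, which holds back the joining of an immature large subunit, had 41.7 ± 2.10 CPM in wildtype vehicle and 28.8 ± 5.95 CPM in mdx vehicle (-0.54 ± 0.15, adjusted p = 0.215, limma). Fastkd2, an RNA-binding protein, had -0.54 ± 0.23. At the other end were Mterf4, which works with the methyltransferase Nsun4 on the large subunit, at 0.37 ± 0.16, and Ngrn at 0.23 ± 0.16. The 7 measured ribosomal proteins whose names fall outside the Mrpl and Mrps pattern had a median of -0.15, from Chchd1 at -0.28 and Ict1 at -0.21 to Gadd45gip1 at -0.05 and Aurkaip1 at 0.01, and 0 passed.

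Of 20 mitochondrial aminoacyl-tRNA synthetases and related enzymes 13 were below 0, with a median of -0.15 and 0 past the test. Fars2 (-0.59 ± 0.22) and Yars2 (-0.36 ± 0.18) had the lowest values, and Nars2 (0.15) and Tars2 (0.13) the highest. Of 10 genes for transcription and copying of mitochondrial DNA 8 were below 0, with a median of -0.05 and 0 past the test. Peo1, the helicase, had -0.40 and the transcription factor Tfb2m -0.36, while Ssbp1 had 0.05 and Mterf1b 0.12. Of 8 nuclear regulators of mitochondrial genes 5 were below 0, with a median of -0.13. Esrra had -0.34 ± 0.26, Gabpa, a subunit of GABP, had -0.27 ± 0.15, Pprc1 0.10 and Myc 0.10, and 0 passed.

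The medians of these 5 lists also moved with mdx vehicle library 1 and with the scaling. With that library left out they were -0.01 for the assembly factors, -0.01 for the ribosomal proteins named otherwise, -0.02 for the synthetases, -0.08 for the genes of mitochondrial DNA and -0.08 for the regulators. The value of Esrra became -0.01 and that of Peo1 -0.19. Scaled by library total only, the 5 medians turned to 0.07, 0.03, 0.02, 0.11 and 0.04, all under the 0.16 of all tested symbols.

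Larger gene families give the setting. The 83 nuclear respiratory chain genes had a median of -0.29 in mdx vehicle against wildtype vehicle, with 76 below 0, and of 0.23 in mdx GTx-026 against mdx vehicle, with 80 above 0. Without mdx vehicle library 1 these medians were -0.11 and 0.04. The 90 genes of the cytosolic ribosome had medians of -0.01 and -0.05, and -0.16 and 0.09 without that library. In mdx vehicle library 1 itself, the respiratory chain median was -0.65 and that of the cytosolic ribosome 0.32 relative to the wildtype vehicle mean. By library total only, these stood at -0.18 and 0.80. In neither family did a gene pass the test in these comparisons.

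**Figure D5:**
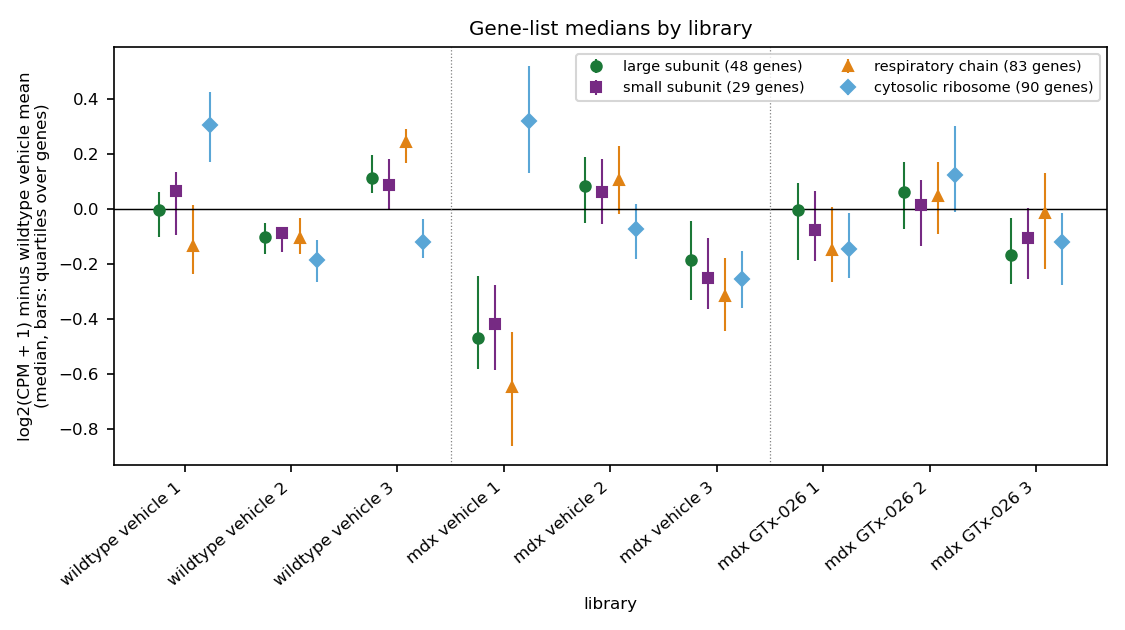
Median of each gene family in each library, as log2(CPM + 1) minus the wildtype vehicle mean, with bars for the quartiles over genes. In mdx vehicle library 1 both mitochondrial ribosome subunits (-0.47 and -0.42) and the respiratory chain (-0.65) are low while the cytosolic ribosome is at 0.32.

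Fibre and muscle markers were set beside the members. The slow-fibre median relative to the wildtype vehicle mean was -3.05 in mdx vehicle library 1, where the members were lowest. It was -1.71 in mdx GTx-026 library 1 and -1.44 in wildtype vehicle library 1, where the large subunit medians were -0.01 and 0.00. It was 1.77 in mdx GTx-026 library 3, where the large subunit median was -0.17. The fast-fibre median was lowest in mdx GTx-026 library 3 at -0.60. Next were mdx vehicle library 1 at -0.45 and mdx vehicle library 3 at -0.25. These are also the 3 libraries with the lowest large subunit medians, -0.17, -0.47 and -0.18. Scaled by library total only, this match was partial. The fast-fibre and large subunit medians were then -0.40 and 0.03 in mdx GTx-026 library 3, and 0.03 and 0.00 in mdx vehicle library 1. They were -0.20 and -0.13 in mdx vehicle library 3 and -0.10 and -0.19 in wildtype vehicle library 2, both among the 3 lowest by either list. The general muscle marker median was lowest in mdx vehicle library 1, at -0.74. Of the macrophage markers Lgals3 passed the test in mdx vehicle against wildtype vehicle, with a log2 fold change of 3.81 (adjusted p = 0.0287, limma). The part of cell composition in the members' values was not tested.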

How the data were processed

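Polyadenylated RNA of 9 gastrocnemius samples was sequenced on an Ion Torrent Proton, per the labels' protocols. The submitters' processing notes name HTSeq 0.6.1p1, TopHat2 2.0.13, DESeq2 1.6.3, SAMtools 0.1.19, Bowtie2 2.2.4 and build GRCm38.p3, without roles. The deposited signal is a scaled read number for each of 46442 sequence records. Further columns are, per the file headers, group means, a ratio of 2 group means and a p-value, all computed by the authors. Values were near whole multiples of 1 step per library, which gave the listed reads, but reads recovered from it were not accepted as counts, so no count model was run and the planned fallback was used.

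Columns name a group and a number, and the number pairs nothing. Records were summed by symbol, and 15372 of 15593 symbols above 0 in all libraries were tested. Left out were 4 records that carry no symbol (0.000646% of the signal). Libraries were rescaled by an unweighted trimmed mean of log ratios (30% and 5% trimmed). Tests used limma 3.58.1 in R 4.3.3 on log2(CPM + 1), with a trended prior, all 9 libraries in 1 model (6 residual degrees of freedom, 3.54 prior), two-sided, Benjamini-Hochberg adjusted over all tested symbols, at a threshold of 0.05. This scale understates changes of low genes. The script was tested on simulated data. Positions and lengths are from GENCODE M21, on GRCm38.

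Members and gene lists were chosen with earlier results of these data known. Named members were, per subunit, the 5 highest and 5 lowest log2 fold changes in each of the first 2 comparisons, the highest and lowest level per kilobase, and a set list (Mrpl3, Mrpl12, Mrpl42, Mrpl44, Mrps12, Mrps18a, Mrps18b, Mrps18c, Mrps30, Mrps36). For the translation lists the 2 highest and 2 lowest in mdx vehicle against wildtype vehicle were named, and Ndufs6, Sars2 and Lgals3 were named after their values were seen. Alternatives were the pseudocount, a low-value filter, scaling, the choice of records, the prior, the compared groups only, and leaving out each library.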

Additional observations from a re-analysis of the deposited data

How the results depend on the processing

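No member passed the test in any of the 3 comparisons under any of 18 alternatives, and the lowest adjusted p of a named member in the first 2 comparisons was 0.119 (limma). The planned count-model alternatives, edgeR and DESeq2, were not run, since the deposited values are scaled. Of the 40 named log2 fold changes 24 kept their direction throughout and 16 turned in at least 1 alternative. Of the 720 values under alternatives 678 kept their direction and 42 turned. The cause was not tested.

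Scaled by library total only, the value in mdx vehicle against wildtype vehicle turned to 0.116 for Mrps18c, 0.101 for Mrps2 and 0.0775 for Mrps35, and as deposited to 0.107, 0.0912 and 0.0680. In mdx GTx-026 against mdx vehicle, Mrps33 turned to -0.0189 by total and -0.0125 as deposited, and Mrps35 to -0.0590 by total, -0.0526 as deposited, -0.00370 with the compared groups only and -0.0779 with the highest record. Leaving out 1 library at a time, ranges in mdx vehicle against wildtype vehicle were -0.0740 to 0.267 for Mrpl3, -0.00473 to 0.112 for Mrpl40, -0.0881 to 0.187 for Mrpl41, -0.148 to 0.0558 for Mrps18c, -0.123 to 0.00730 for Mrps2 and -0.237 to 0.0568 for Mrps35. In mdx GTx-026 against mdx vehicle they were -0.235 to 0.0707 for Mrpl19, -0.129 to 0.0441 for Mrpl36, -0.299 to 0.174 for Mrpl53, -0.248 to 0.136 for Mrpl54, -0.0519 to 0.0280 for Mrps10, -0.126 to 0.126 for Mrps15, -0.123 to 0.141 for Mrps26, -0.0511 to 0.437 for Mrps27, -0.0577 to 0.214 for Mrps33 and -0.0902 to 0.108 for Mrps35.

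The small subunit median in mdx vehicle against wildtype vehicle was -0.00134 by library total and -0.0105 as deposited, and ran from -0.356 to -0.0930 with 1 library left out. Symbols past the threshold in that comparison numbered 75, 17 with the compared groups only, 48 with the highest record, and 9 to 102 with 1 library left out (9 without wildtype vehicle library 2 or 3, 20 without mdx vehicle library 3, 34 without mdx GTx-026 library 2 and 47 without mdx GTx-026 library 3). In mdx GTx-026 against mdx vehicle they numbered 2, 4 by total and as deposited, 1 with the compared groups only or a pseudocount of 5, and 0 to 2 with 1 library left out. In mdx GTx-026 against wildtype vehicle they numbered 253, 450 with the compared groups only, and 65 to 401 with 1 library left out (401 without mdx vehicle library 1, and 65 to 161 without any 1 of the wildtype vehicle or mdx GTx-026 libraries). The standard error of a member's log2 fold change had a median of 0.17, and the part of depth in it was not tested.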
